A study of Mus musculus with 20 samples.

Results

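The genes described here are 10 genes of the mouse segmentation clock and the segment boundary, Hes7, Hes1, Nrarp, Lfng, Dll1, Dll3, Notch1, Mesp2, Ripply1 and Ripply2. They were chosen by name as known genes of somite formation, with earlier results of these data known. Each corresponded to 1 of the 54446 gene IDs in the deposited tables. All 10 passed the filter on low values, a mean of at least 1 TPM over the libraries, which left 14290 genes for testing. TPM is a transcript abundance corrected for gene length and scaled to the same total in every library.

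Bulk RNA sequencing was compared in 15 libraries, from 5 groups with 3 biological replicates each. The structures came from the mouse embryonic stem cell line F1G4. All cells carried the double reporter T::H2B-mCherry/Sox2::H2B-Venus, and every aggregate received a pulse of 3 µM CHIR99021, a GSK3 inhibitor that activates WNT signalling, after 48 h. The group 96h held precursors collected at 96 h, with 10 structures pooled in a library. The other groups were collected at 120 h with 6 structures pooled. Gastruloid was grown by the Beccari protocol, TLSMG in Matrigel, a basement membrane gel, TLSMGC in Matrigel with further CHIR, and TLSMGCL in Matrigel with CHIR and LDN, an inhibitor of BMP receptors. The line is a single reporter line of cultured cells, structures were picked for an asymmetric pole, and no embryo was measured in these libraries.

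Somites form one after another from the presomitic mesoderm, whose cells express a set of Notch, WNT and FGF pathway genes in oscillating waves. Hes7 represses its own transcription and that of Lfng, whose product modifies the Notch receptor, and the loop of activation and repression makes the clock. Where the wave stops, Mesp2 marks the next segment, and its targets Ripply1 and Ripply2 end the presomitic programme and fix the boundary. A pooled library averages over structures and over cells in every phase of the wave, so it gives the level of a clock gene and not its rhythm.

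All 10 genes are annotated as protein coding, and their coordinates in the deposited tables (mm10) were the same as in GENCODE M21. Hes7 (ENSMUSG00000023781.2) lies at chr11:69120404-69124055 on the plus strand, Hes1 (ENSMUSG00000022528.8) at chr16:30064384-30067796 on the plus strand, and Nrarp (ENSMUSG00000078202.3) at chr2:25180758-25183339 on the plus strand. Lfng (ENSMUSG00000029570.5) lies at chr5:140607320-140615545 on the plus strand. The ligand genes Dll1 (ENSMUSG00000014773.13) and Dll3 (ENSMUSG00000003436.11) lie at chr17:15367354-15376872 and chr7:28293553-28302238, and the receptor gene Notch1 (ENSMUSG00000026923.15) at chr2:26457903-26516663, all on the minus strand. Mesp2 (ENSMUSG00000030543.10) lies at chr7:79810727-79813439 on the plus strand, Ripply1 (ENSMUSG00000072945.3) at chrX:139779549-139782353 on the minus strand, and Ripply2 (ENSMUSG00000047897.10) at chr9:87015537-87019917 on the plus strand. Hes7, Dll1, Nrarp and Notch1 each overlap a gene annotated on the opposite strand. The highest TPM of those partners in any library was 0.952 beside Hes7, 3.26 beside Dll1, 10.2 beside Nrarp and 7.26 beside Notch1. Whether the authors' quantification used the strand of the reads is not given in the sources used here.

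Sequence upstream of the RefSeq start was read for 9 of the 10 genes from RefSeq windows on GRCm38.p6, with 10 entries because Dll1 has 2. The windows of Notch1 and Dll3 and 1 of those of Dll1 lie inside the genes' M21 coordinates. Those of Hes7 and Lfng overlap these coordinates in part, and all bases of each window were searched. The 250 bases before each start were searched on both strands for the core of the RBPJ motif, TGGGAA, the letters bound by the DNA-binding partner of activated Notch. Those letters stood in 21.6% of all 32851 windows and in 2 of the 10 windows of the clock genes, 1 match upstream of Hes7 and 2 upstream of Lfng. Shown are 4 pieces, the Hes7, Lfng and Nrarp pieces because these Notch feedback genes moved differently under CHIR and the Mesp2 piece as a boundary gene. Capitals mark TGGGAA or its reverse complement TTCCCA, the sequences run 5′ to 3′ along the gene's strand, and annotated transcript bases were trimmed, which leaves 201 bases for Hes7 (chr11:69120203-69120403, plus strand) and 229 for Lfng (chr5:140607091-140607319, plus strand). The Nrarp and Mesp2 pieces hold all 250 bases (chr2:25180508-25180757 and chr7:79810477-79810726, plus strand).
Hes7: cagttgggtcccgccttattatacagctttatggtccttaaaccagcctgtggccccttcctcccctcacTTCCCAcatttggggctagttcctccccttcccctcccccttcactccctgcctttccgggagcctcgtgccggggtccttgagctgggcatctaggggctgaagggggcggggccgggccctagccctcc
Lfng: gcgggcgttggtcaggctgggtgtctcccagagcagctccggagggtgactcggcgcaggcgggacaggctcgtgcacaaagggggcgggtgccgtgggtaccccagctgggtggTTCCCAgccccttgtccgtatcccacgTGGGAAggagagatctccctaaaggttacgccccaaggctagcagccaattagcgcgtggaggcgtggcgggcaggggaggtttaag
Nrarp: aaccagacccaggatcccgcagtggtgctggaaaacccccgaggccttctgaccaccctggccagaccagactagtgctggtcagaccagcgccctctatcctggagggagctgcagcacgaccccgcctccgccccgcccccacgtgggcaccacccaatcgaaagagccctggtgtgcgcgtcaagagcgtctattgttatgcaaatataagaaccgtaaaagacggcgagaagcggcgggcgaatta
Mesp2: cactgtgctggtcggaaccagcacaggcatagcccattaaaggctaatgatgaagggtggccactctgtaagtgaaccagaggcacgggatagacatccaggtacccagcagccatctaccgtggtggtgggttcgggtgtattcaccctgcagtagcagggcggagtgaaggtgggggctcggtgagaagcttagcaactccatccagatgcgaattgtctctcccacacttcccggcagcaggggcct

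The Hes7 match was in reverse orientation, and Lfng had 1 match in each orientation. The N box CACNAG, recognised by HES repressors, stood in 36.7% of all windows and in 4 of the 10 windows of the clock genes, with 1 match at Hes7, 1 at Lfng, 2 at Nrarp and 1 at Notch1. The TCF/LEF core CTTTGA (13.8% of all windows) and the T-box letters AGGTGT (11.8%) stood in 0 of the 10. The short E box CANNTG, bound by many bHLH factors, stood in 66.2% of all windows and in 9 of the 10. None of these motifs can overlap another over its full length, although their ends may share bases. A match describes letters in this window and not a bound site, and a window without one says nothing about the factor.

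Between 96 h and 120 h most of the clock and boundary genes fell in every 120 h group, in part to a few percent of their level at 96 h. Hes7, Nrarp, Lfng, Dll1, Dll3, Notch1, Mesp2 and Ripply2 fell in all 4 comparisons, Hes1 rose in 3 of them, and Ripply1 was called in none. In bulk samples, fewer cells of a type and less RNA per cell cannot be told apart. Differences are given on the scale of log2(TPM + 1), which understates changes of genes near the floor, and were tested with limma in 1 model of the 5 groups, with Benjamini-Hochberg adjustment over the 14290 genes. The 4 comparisons with 96h share its 3 libraries and are not independent of each other.

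In Gastruloid against 96h, 8 of the 10 genes fell, where 20.5% of all tested genes did, and 1 rose, where 20.8% did. In TLSMG against 96h, 8 fell (12.5% of all genes) and 1 rose (33.5%). In TLSMGC against 96h, 8 fell (20.1%) and 0 rose by limma (20.6%), with 1 higher at an unadjusted p under 0.05. In TLSMGCL against 96h, 8 fell (22.1%) and 1 rose (17.4%). The median log2 difference of the 10 genes was -3.08 in Gastruloid, -3.08 in TLSMG, -2.05 in TLSMGC and -1.86 in TLSMGCL, against 0.00, 0.14, 0.02 and -0.02 over all genes tested. Over the 5 groups 9 of the 10 genes differed in an F test (73.5% of all genes), and over the 4 groups at 120 h 7 did (62.7%). The 3 not called at 120 h were Lfng (adjusted p = 0.327), Ripply1 (0.766) and Ripply2 (0.0574).

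**Figure D1:**
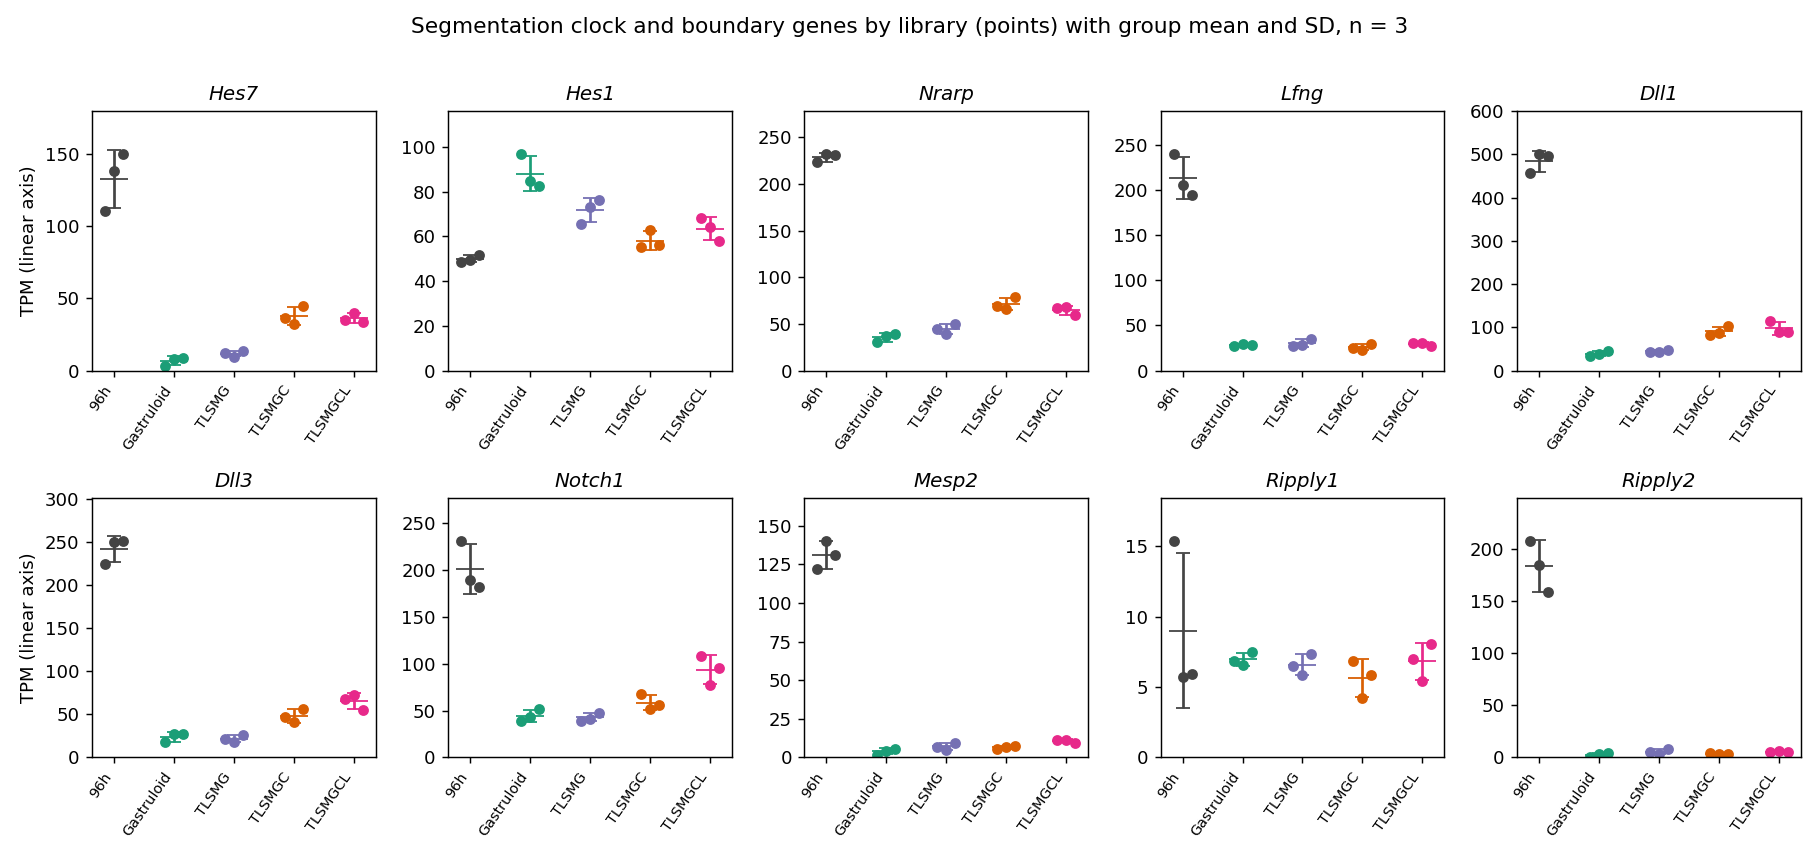
TPM of the 10 genes (vertical axes, linear, from 0) in each of the 15 libraries, by group; points are libraries, and the horizontal mark and bar give the mean and SD of the 3 libraries. In 8 panels the 96h libraries stand above all others, Hes1 is lowest at 96h, and Ripply1 has 1 high library at 96h (15.4 TPM).

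Hes7, the repressor at the core of the mouse clock, stood at 111, 138 and 150.0 TPM in the 96h libraries. In Gastruloid it had 3.43, 8.14 and 8.91 TPM, and in TLSMG 12.5, 9.48 and 13.2. With CHIR it had 36.3, 32.4 and 44.9 TPM in TLSMGC and 35.3, 40.0 and 33.4 in TLSMGCL. The groups formed steps without overlap, 96h highest, both CHIR groups next, then TLSMG, then Gastruloid, while the CHIR groups overlapped each other. Hes7 fell by 4.17 on the log2 scale in Gastruloid (SE 0.25, adjusted p = 1.8e-08), to 5.14% of its mean at 96h. The difference from 96h was -3.39 in TLSMG (adjusted p = 1.31e-07), -1.79 in TLSMGC (6.76e-05) and -1.84 in TLSMGCL (5.46e-05). Its mean in the CHIR groups was 28.5% (TLSMGC) and 27.3% (TLSMGCL) of that at 96h.

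With added CHIR Hes7 rose by 1.61 over TLSMG (SE 0.25, adjusted p = 1.9e-04), the largest of the 10 differences in that comparison. With LDN also present the difference from TLSMG was 1.56 (2.18e-04), and between both CHIR groups it was -0.05 (adjusted p = 0.956, 95% confidence interval -0.58 to 0.48). Hes7 was also called higher in TLSMG than in Gastruloid, by 0.77 (adjusted p = 0.0237). That call was lost without Gastruloid replicate 1, the library with 3.43 TPM, where the difference was 0.41 (adjusted p = 0.0806), and under every scaling other than TPM.

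Nrarp encodes a small ankyrin repeat protein that is induced by Notch and dampens it. Its libraries had 223, 232 and 230.5 TPM at 96h, 30.2, 37.5 and 39.1 in Gastruloid, and 44.9, 39.1 and 49.8 in TLSMG. Under CHIR they had 68.9, 66.0 and 78.7 TPM in TLSMGC and 67.1, 67.6 and 59.3 in TLSMGCL. The order of the groups was that of Hes7 over a narrower range, and the 96h libraries lay close together. Nrarp fell in all 4 groups, with log2 differences from 96h of -2.66 in Gastruloid (SE 0.11, adjusted p = 4.54e-10), -2.34 in TLSMG (1.42e-09), -1.67 in TLSMGC (4.88e-08) and -1.81 in TLSMGCL (2.05e-08). Over TLSMG it rose by 0.67 in TLSMGC (2.52e-04) and by 0.53 in TLSMGCL (0.00122). The difference between TLSMG and Gastruloid, 0.32 (adjusted p = 0.029), was 0.15 (0.301) after median-of-ratios scaling and 0.21 (0.137) without Gastruloid replicate 1.

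Hes1, a Notch target of many tissues that also oscillates in the presomitic mesoderm, went the other way. Its libraries had 48.7, 49.7 and 51.6 TPM at 96h, 96.9, 85.0 and 82.6 in Gastruloid, and 65.7, 73.2 and 76.5 in TLSMG. In TLSMGC it had 55.2, 63.0 and 56.0 TPM and in TLSMGCL 68.1, 64.2 and 57.9. The 96h libraries were the lowest of all, and those of Gastruloid the highest. Hes1 rose by 0.80 in Gastruloid (SE 0.08, adjusted p = 5.05e-06), by 0.51 in TLSMG (2.42e-04) and by 0.33 in TLSMGCL (0.00605). In TLSMGC the difference of 0.21 missed the threshold (adjusted p = 0.0599, 95% confidence interval 0.03 to 0.39), although its libraries all exceeded those of 96h, and it passed with FPKM (0.23, 0.0441). Its difference between TLSMG and Gastruloid, -0.29 (adjusted p = 0.0143), was lost without Gastruloid replicate 1 (-0.22, 0.0714) and without TLSMG replicate 1 (-0.23, 0.0608).

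Hes1 was lower in TLSMGC than in TLSMG (-0.30, adjusted p = 0.0111), a call lost with median-of-ratios scaling (-0.14, 0.225), with FPKM (-0.19, 0.0979) and without TLSMG replicate 3 (-0.26, 0.0508). The summed TPM of the neural tube markers was highest in the same groups as Hes1, 214 to 308 in Gastruloid and 136 to 203 in TLSMG, against 39.7 to 45.5 at 96h, 36.6 to 43.9 in TLSMGC and 43.5 to 47.4 in TLSMGCL. The list holds 6 genes (Sox1, Sox2, Pax6, Irx3, Olig2 and Nkx6-1), of which 2 were under 1 TPM in all libraries of 96h, TLSMGC and TLSMGCL and 0 in Gastruloid and TLSMG. None was listed at 0 in all 3 libraries of a group, and their part in the Hes1 difference was not tested.

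Lfng encodes the fringe glycosyltransferase that modifies Notch receptors in the clock. It stood at 239.7, 205 and 195 TPM at 96h, at 26.9, 29.1 and 28.8 in Gastruloid, and at 27.1, 28.7 and 35.4 in TLSMG. In TLSMGC it had 25.3, 22.9 and 29.8 TPM, and in TLSMGCL 30.4, 30.6 and 27.5. All 12 libraries at 120 h lay in 1 narrow band, well under the 96h libraries, and the 120 h groups overlapped. Lfng fell in all 4 groups, with log2 differences from 96h of -2.87 in Gastruloid (SE 0.11, adjusted p = 4.4e-10), -2.77 in TLSMG (5.67e-10), -2.99 in TLSMGC (4.64e-10) and -2.81 in TLSMGCL (6.65e-10). Its means at 120 h were 12.2% to 14.3% of that at 96h.

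No difference of Lfng among the 120 h groups was called. TLSMGC minus TLSMG was -0.22 (adjusted p = 0.143, 95% confidence interval -0.46 to 0.03), an interval that ends below the rise of Hes7. TLSMG minus Gastruloid was 0.09 (0.551), or -0.07 after median-of-ratios scaling and -0.08 with FPKM, and TLSMGCL minus TLSMG was -0.03 (0.831), or 0.16 and 0.09. The last 2 differences changed sign between scalings, while TLSMGC minus TLSMG stayed below 0 (-0.06 after median-of-ratios scaling and -0.10 with FPKM), and none of the 3 had an adjusted p below 0.05 under any of these scalings.

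Because both values of a ratio come from 1 library, the ratio of Hes7 to Lfng does not depend on how libraries were scaled to each other. It was 0.462, 0.673 and 0.77 at 96h, 0.128, 0.28 and 0.309 in Gastruloid, and 0.462, 0.331 and 0.374 in TLSMG. In TLSMGC it was 1.43, 1.42 and 1.5, and in TLSMGCL 1.16, 1.31 and 1.21. Hes7 exceeded Lfng in all 6 libraries with CHIR and in none of the other 9. The ratio of Lfng to Nrarp moved as well, from 0.603, 0.733 and 0.711 in TLSMG to 0.367, 0.347 and 0.379 in TLSMGC and 0.454, 0.452 and 0.464 in TLSMGCL. The libraries of the CHIR groups and of TLSMG did not overlap in either ratio. These ratios were chosen after the levels were seen and were not tested.

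**Figure D2:**
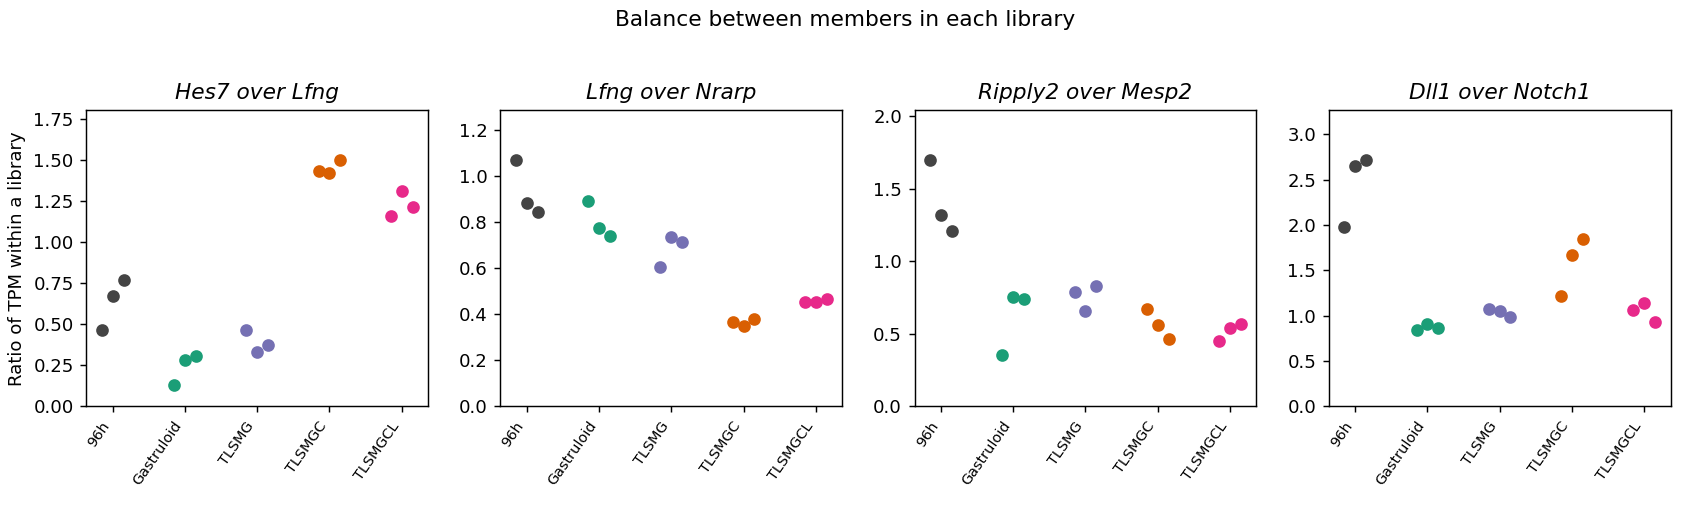
Ratios of TPM between 2 genes of the same library (vertical axes, linear, from 0) for the 5 groups; each point is a library. Hes7 over Lfng exceeds 1 in the 6 CHIR libraries only, Lfng over Nrarp is lowest in TLSMGC, and Ripply2 over Mesp2 exceeds 1 at 96h only.

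Dll1, the main activating Notch ligand of the presomitic mesoderm, was the most abundant of the 10 at 96h, with 456, 501 and 495 TPM. It had 32.7, 39.1 and 44.5 TPM in Gastruloid and 42.1, 43.5 and 46.8 in TLSMG. In TLSMGC it had 82.7, 86.4 and 103 TPM and in TLSMGCL 114, 89.0 and 89.2. Gastruloid and TLSMG overlapped, as did the CHIR groups, and a gap separated the pairs. Dll1 fell in all 4 groups, with log2 differences from 96h of -3.62 in Gastruloid (SE 0.12, adjusted p = 7.07e-11), -3.43 in TLSMG (1.48e-10), -2.41 in TLSMGC (5.12e-09) and -2.31 in TLSMGCL (6.76e-09). It rose by 1.02 in TLSMGC over TLSMG (1.88e-05) and by 1.12 in TLSMGCL (6.94e-06), while TLSMG minus Gastruloid was 0.19 (0.216, 95% confidence interval -0.06 to 0.45).

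Dll3 encodes a divergent Delta protein that acts inside the cell and is needed for even segments. Its libraries had 225, 250.0 and 252 TPM at 96h, 17.5, 27.4 and 27.3 in Gastruloid, and 21.7, 18.1 and 25.6 in TLSMG. They had 46.6, 40.8 and 56.8 TPM in TLSMGC and 67.6, 73.0 and 54.8 in TLSMGCL. Its pattern was that of Dll1, with Gastruloid and TLSMG overlapping and both CHIR groups above them. Dll3 fell in all 4 groups, with log2 differences from 96h of -3.30 in Gastruloid (SE 0.17, adjusted p = 5.85e-09), -3.43 in TLSMG (4.63e-09), -2.32 in TLSMGC (2.53e-07) and -1.89 in TLSMGCL (1.81e-06). Over TLSMG it rose by 1.11 in TLSMGC (2.47e-04) and by 1.54 in TLSMGCL (1.21e-05). The difference between the CHIR groups, 0.43 higher with LDN, did not pass (adjusted p = 0.307), and their libraries overlapped.

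Notch1 encodes the receptor of these ligands in the presomitic mesoderm. It had 231, 189 and 182 TPM at 96h, 38.7, 42.8 and 51.4 in Gastruloid, and 39.3, 41.5 and 47.7 in TLSMG. In TLSMGC it had 68.0, 51.6 and 56.1 TPM and in TLSMGCL 108, 77.7 and 95.6. Each addition to Matrigel came with a higher level, and TLSMG, TLSMGC and TLSMGCL did not overlap. Notch1 fell in all 4 groups, with log2 differences from 96h of -2.16 in Gastruloid (SE 0.14, adjusted p = 6.44e-08), -2.20 in TLSMG (4.91e-08), -1.76 in TLSMGC (5.6e-07) and -1.09 in TLSMGCL (4.73e-05). At 46.7% of its mean at 96h in TLSMGCL, it kept the largest share among the 8 genes that fell.

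Notch1 was the only one of the 10 genes called between TLSMGCL and TLSMGC, where it was 0.67 higher with LDN (adjusted p = 0.0426). That call was lost without TLSMGC replicate 2 (0.58, adjusted p = 0.166), without TLSMGC replicate 3 (0.64, 0.0911), without TLSMGCL replicate 1 (0.56, 0.16) and without TLSMGCL replicate 3 (0.65, 0.132), and in a fit of these 2 groups alone (0.67, 0.189). Its rise in TLSMGC over TLSMG, 0.44 (0.0263), was lost without TLSMG replicate 1 (0.38, 0.085), TLSMG replicate 2 (0.42, 0.0721) or TLSMGC replicate 1 (0.33, 0.108). That call of Notch1 was also lost with all libraries and no filter on low values (0.44, 0.0594). The rise in TLSMGCL over TLSMG, 1.10 (4.09e-05), kept its side of the threshold in all alternatives run. The ratio of Dll1 to Notch1 was 1.98, 2.65 and 2.72 at 96h and 0.846, 0.913 and 0.865 in Gastruloid. It was 1.07, 1.05 and 0.981 in TLSMG, 1.22, 1.67 and 1.84 in TLSMGC, and 1.06, 1.14 and 0.934 in TLSMGCL. The ratio was highest at 96h, and Gastruloid was the group where all 3 libraries had more Notch1 than Dll1.

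**Figure D3:**
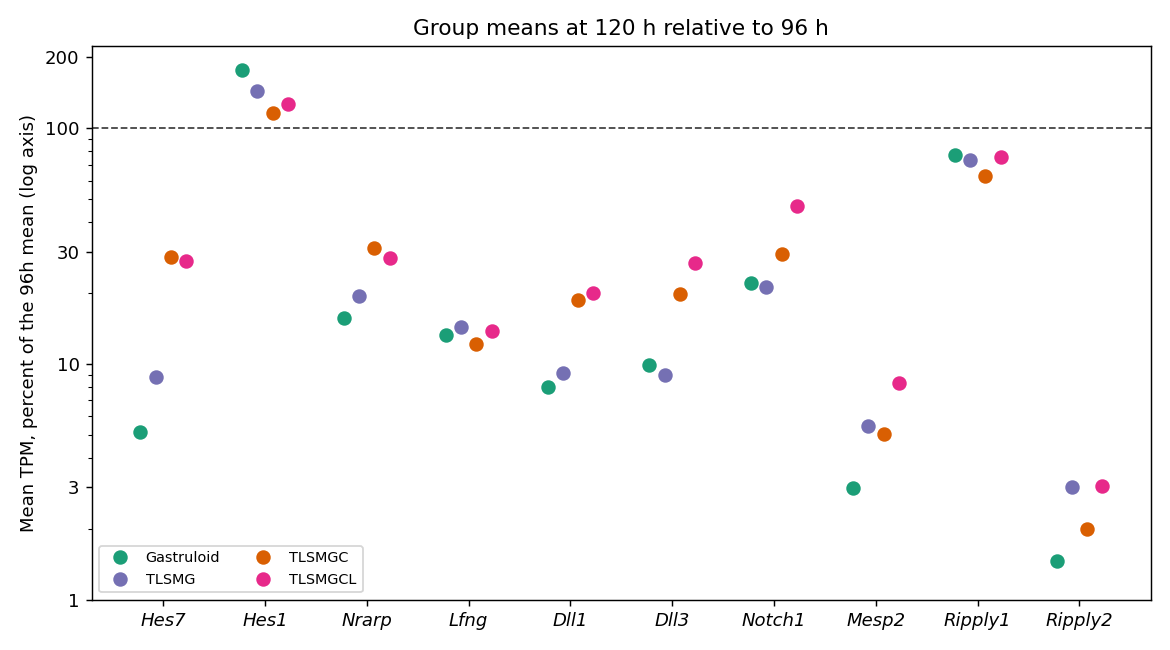
Mean TPM of the 10 genes in each 120 h group as a percent of the mean at 96h (vertical axis, log scale; the dashed line is 100%); each point is the mean of 3 libraries. Hes7 spans 5.14% to 28.5%, Lfng stays between 12.2% and 14.3%, Ripply2 lies at 1.46% to 3.04%, and Hes1 lies above 100%.

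Mesp2, the transcription factor that sets the next segment boundary, stood at 122, 140.2 and 131 TPM at 96h. It had 1.75, 4.46 and 5.51 TPM in Gastruloid and 7.05, 5.11 and 9.36 in TLSMG. In TLSMGC it had 5.76, 6.50 and 7.65 TPM and in TLSMGCL 11.6, 11.3 and 9.66. The 12 libraries at 120 h were far below the lowest at 96h, and TLSMGCL was the highest of the 120 h groups, with no overlap with any of the others. Mesp2 fell in all 4 groups, with log2 differences from 96h of -4.84 in Gastruloid (SE 0.26, adjusted p = 6.28e-09), -4.04 in TLSMG (3.83e-08), -4.12 in TLSMGC (4.6e-08) and -3.48 in TLSMGCL (2.02e-07). Its means at 120 h were 2.98% (Gastruloid) to 8.28% (TLSMGCL) of that at 96h.

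With CHIR alone Mesp2 was not called against TLSMG (-0.07, adjusted p = 0.842, 95% confidence interval -0.63 to 0.48), and the sign turned with median-of-ratios scaling (0.07) and FPKM (0.02). With CHIR and LDN it was 0.57 higher than in TLSMG (adjusted p = 0.09), which passed after median-of-ratios scaling (0.74, 0.0352), with FPKM (0.61, 0.0376) and without TLSMG replicate 3 (0.75, 0.0480). TLSMGCL minus TLSMGC was 0.64 (adjusted p = 0.308). The call between TLSMG and Gastruloid, 0.80 (0.026), was made on overlapping libraries and was lost without Gastruloid replicate 1 (0.42, 0.101).

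Ripply2, a target of Mesp2 that represses the presomitic programme, showed the largest fall of the 10 genes in each of the 4 comparisons with 96h. It had 208, 185 and 159 TPM at 96h, 0.617, 3.35 and 4.07 in Gastruloid, and 5.58, 3.36 and 7.75 in TLSMG. In TLSMGC it had 3.85, 3.64 and 3.54 TPM and in TLSMGCL 5.21, 6.08 and 5.48. The 96h libraries were far above the rest, and Gastruloid replicate 1 was the lowest of all. Ripply2 fell in all 4 groups, with log2 differences from 96h of -5.80 in Gastruloid (SE 0.34, adjusted p = 1.51e-08), -4.86 in TLSMG (8.29e-08), -5.30 in TLSMGC (5.1e-08) and -4.80 in TLSMGCL (1.18e-07). Its means at 120 h were 1.46% to 3.04% of that at 96h.

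With CHIR no difference of Ripply2 was called by limma (TLSMGC minus TLSMG -0.43, adjusted p = 0.324, 95% confidence interval -1.16 to 0.29). That interval is too wide to show that Ripply2 stayed the same. The difference between the CHIR groups was 0.49 (0.593), although their libraries did not overlap. Ripply2 was called higher in TLSMG than in Gastruloid, by 0.94 (0.0407), and the call was lost without Gastruloid replicate 1 (0.43, 0.157). The ratio of Ripply2 to Mesp2 was 1.7, 1.32 and 1.21 at 96h and 0.353 to 0.828 in the 12 libraries at 120 h. Ripply2 was above Mesp2 in every 96h library and below it in every 120 h library.

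Ripply1, the paralogue of Ripply2, did not follow it. Its libraries had 15.4, 5.71 and 5.92 TPM at 96h, 6.87, 6.54 and 7.46 in Gastruloid, and 6.52, 5.87 and 7.36 in TLSMG. They had 6.88, 4.20 and 5.83 TPM in TLSMGC and 6.99, 5.43 and 8.06 in TLSMGCL. Apart from 96h replicate 1 all libraries lay in 1 range and all groups overlapped. The differences from 96h were -0.20 in Gastruloid (adjusted p = 0.593, 95% confidence interval -0.79 to 0.39), -0.27 in TLSMG (0.443), -0.48 in TLSMGC (0.183) and -0.24 in TLSMGCL (0.53). Without 96h replicate 1 they were 0.22, 0.15, -0.06 and 0.19, so their sign in 3 groups rested on that library. Of the 96h libraries, the one with high Ripply1 had the lowest Hes7, Hes1, Nrarp, Dll1, Dll3 and Mesp2. It also had the highest Lfng, Notch1 and Ripply2.

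Among the 120 h groups, more of these genes rose with CHIR in Matrigel than fell. In TLSMGC against TLSMG, 5 of the 10 rose, where 10.4% of all tested genes did, and 1 fell, where 30.5% did. In TLSMGCL against TLSMG, 5 rose (9.31%) and 0 fell by limma (35.6%). In TLSMG against Gastruloid, 4 rose (31.5%) and 1 fell (7.87%), and in TLSMGCL against TLSMGC, 1 rose (0.406%) and 0 fell by limma (0.777%). In neither of the comparisons with 0 falls was any gene lower at an unadjusted p under 0.05, and 3 were higher in TLSMGCL than in TLSMGC at that level. The median difference of the 10 genes was 0.18, 0.55, 0.14 and 0.21 in that order, against -0.16, -0.18, 0.13 and -0.04 over all genes. The counts in TLSMG against Gastruloid are close to the share of all genes that rose there, and they fell from 5 to 1 under other scalings and to 0 without Gastruloid replicate 1 or TLSMG replicate 1.

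The scaling matters here because the median difference of all genes on the TPM scale was not 0, with 0.14 in TLSMG minus 96h, 0.13 in TLSMG minus Gastruloid, -0.16 in TLSMGC minus TLSMG and -0.18 in TLSMGCL minus TLSMG. The cause of these shifts was not tested, and median-of-ratios scaling brings the median near 0 by its construction. Of the calls over all genes, 72.9%, 80.0%, 25.5% and 20.7% were higher in these 4 comparisons, against 49.2%, 51.6%, 49.4% and 48.8% after median-of-ratios scaling and 61.7%, 50.0%, 40.9% and 37.7% with FPKM. In TLSMGCL minus TLSMGC the share was 34.3%, 51.0% and 44.7%, and in Gastruloid minus 96h it was 50.4%, 48.5% and 62.4%. Relative to the median of all genes, Hes7 was 1.77 higher in TLSMGC than in TLSMG, Dll3 1.27, Dll1 1.18, Nrarp 0.83 and Notch1 0.60, while Lfng (-0.06), Mesp2 (0.09), Hes1 (-0.14), Ripply1 (-0.05) and Ripply2 (-0.27) lay closer to it.

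**Figure D4:**
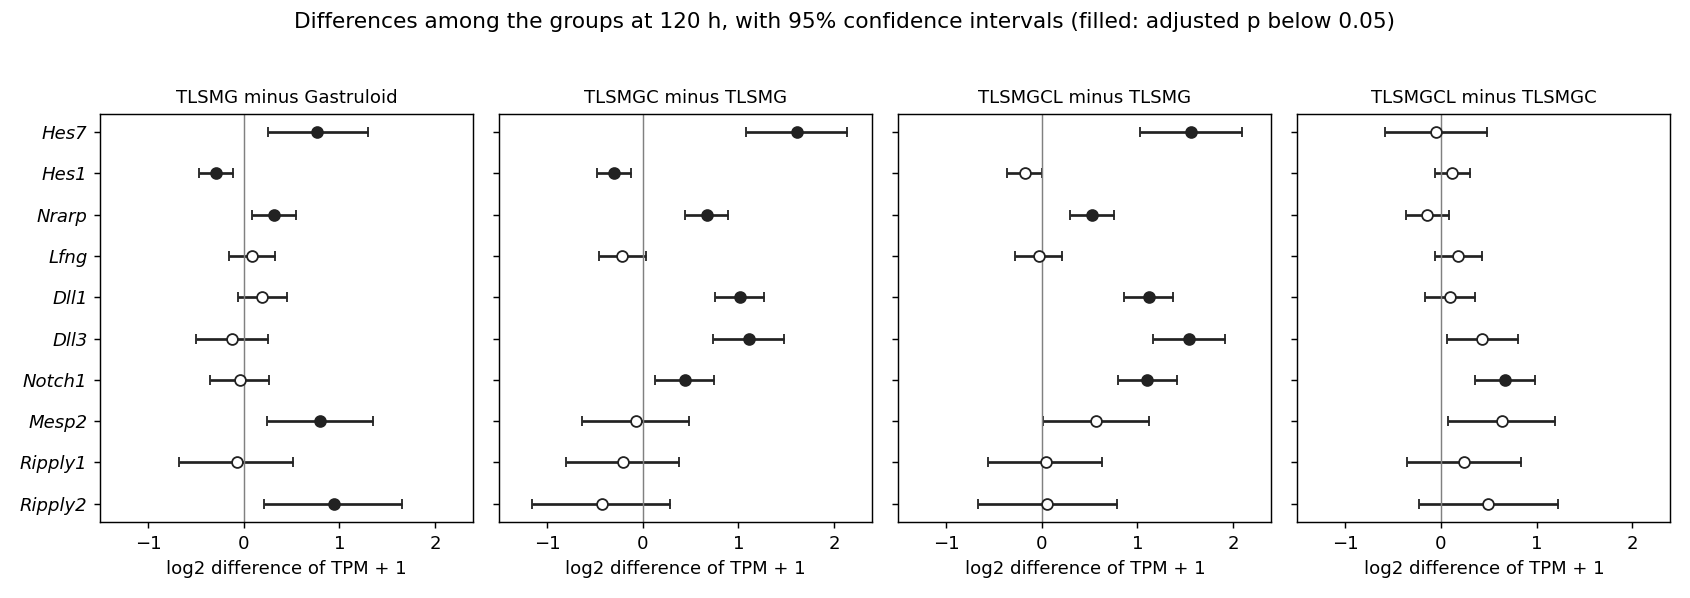
Log2 differences of TPM + 1 (horizontal axes) for the 10 genes in the 4 comparisons among 120 h groups, with 95% confidence intervals from the model of all groups; filled points have an adjusted p below 0.05. With CHIR, Hes7 (1.61), Dll3 (1.11), Dll1 (1.02), Nrarp (0.67) and Notch1 (0.44) lie above 0, and Lfng, Mesp2, Ripply1 and Ripply2 are open points.

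The levels, which TPM gives per length, also changed order. At 96h Dll1 led with 484 ± 24.2 TPM (SD, n = 3), clear of the next gene, then came Dll3, Nrarp, Lfng, Notch1 and Ripply2, whose neighbours overlapped, then Hes7 and Mesp2, and last Hes1 and Ripply1. In Gastruloid and TLSMG Hes1 led, at 88.2 and 71.8 TPM, above every library of the next gene, and Ripply2 was last at 2.68 and 5.56, overlapping the gene before it. In TLSMGC and TLSMGCL Dll1 led again at 90.7 and 97.4 TPM, overlapping Notch1 (93.8) in TLSMGCL, and Ripply2 was again last at 3.68 and 5.59. Hes7 stood above Lfng in both CHIR groups and below it in the other 3, without overlap between the genes in any of the 5 groups. The pooled SD between replicates was 0.10 for Hes1, 0.14 for Nrarp, 0.15 for Lfng and 0.16 for Dll1 on the log2 scale, and 0.34 for Hes7, 0.36 for Mesp2, 0.38 for Ripply1 and 0.47 for Ripply2. Its median was 0.218 for the 10 genes and 0.149 for all genes tested.

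The summed level of presomitic markers moved with some of these genes and not with others. The summed TPM of the presomitic marker list (Tbx6, Msgn1, T, Wnt3a, Fgf8 and Cyp26a1) ranged from 531 to 808 in the 96h libraries. It ranged from 37.4 to 62.0 in Gastruloid and from 48.9 to 64.9 in TLSMG, and lay between 162 and 201 in TLSMGC and between 132 and 150 in TLSMGCL. From TLSMG to TLSMGC, where the sum was higher without overlap, 5 of the 10 clock and boundary genes were called higher, whereas the mean levels of Lfng (30.4 and 26.0 TPM), Mesp2 (7.18 and 6.64) and Ripply2 (5.56 and 3.68) were no higher. Of the 6 markers themselves, 4 rose by limma in that comparison, where 10.4% of all tested genes did. Fgf8 had 25.6 and 30.1 TPM (adjusted p = 0.257). Cyp26a1 was called lower (5.10 and 3.03 TPM), as 30.5% of all tested genes were. Within the 96h group, replicate 1 had the lowest presomitic sum (531 against 736 and 808) and the highest somite sum (1120 against 886 and 822). Within Gastruloid, replicate 1 had the lowest sum (37.4 against 59.8 and 62.0), and the marker Msgn1 was listed at 0 in it. That library was also the lowest of its group for all 8 genes that fell against 96h, and the highest for Hes1. Its neural tube sum was the highest (308 against 242 and 214). Its depth, read from the coverage of a gene per FPKM, was the lowest (3.282 against 4.244 and 4.606). The summed somite marker list (Meox1, Tcf15, Uncx, Tbx18, Foxc2 and Pax1) spanned a smaller range, with 822 to 1120 TPM at 96h and 976 to 1150 in Gastruloid, then 816 to 966 (TLSMG), 632 to 684 (TLSMGC) and 717 to 834 (TLSMGCL). That sum covers opposite changes. In Gastruloid against 96h 4 of the 6 rose and 1 fell, where 20.8% and 20.5% of all tested genes did. In TLSMGC against TLSMG 1 rose and 4 fell, where 10.4% and 30.5% did. Pax1 had means of 0.0362 TPM at 96h, 61.7 in Gastruloid, 17.0 in TLSMG and 0.266 in TLSMGC, while Foxc2 went from 342 TPM at 96h to 121 in Gastruloid and 87.3 in TLSMGC. None of the markers of either list was listed at 0 in all 3 libraries of a group. The part of the presomitic cells' number in the differences of the clock genes was not tested.

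Genes of the neighbouring pathways were counted in lists chosen by function. Over all genes tested, 20.8% rose and 20.5% fell in Gastruloid against 96h (median 0.004), and 10.4% rose and 30.5% fell in TLSMGC against TLSMG (median -0.16). Of 9 presomitic and tailbud regulators, 9 fell in Gastruloid and in TLSMG and 8 in TLSMGC and in TLSMGCL against 96h. The medians were -3.50, -2.87, -2.32 and -2.87. Of all genes tested, 12.5% fell in TLSMG, 20.1% in TLSMGC and 22.1% in TLSMGCL against 96h. In TLSMGC against TLSMG 6 of them rose and 1 fell, led by Msgn1 (4.11, adjusted p = 1.57e-08) and Tbx6 (3.19, 7.69e-07), a bHLH and a T-box factor of presomitic identity. The fall was Cyp26a1 (-0.58, 0.039), a retinoic acid hydroxylase, and was lost after median-of-ratios scaling (-0.45, 0.113). Msgn1 was lower with LDN than without it (TLSMGCL minus TLSMGC -1.18, adjusted p = 0.0194). It was the one member of the list called there, where 0.777% of all tested genes fell.

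Of 13 WNT and FGF genes of the clock, 0 rose (1 at an unadjusted p under 0.05) and 11 fell in Gastruloid against 96h by limma, with a median of -1.37. In TLSMGC against TLSMG 5 rose and 4 fell (median 0.01). Those that rose were the WNT feedback genes Sp5 (4.44, 8.75e-10), Nkd1 (2.50, 1.44e-09), Tnfrsf19 (2.33, 1.34e-08), Axin2 (2.05, 7.78e-07) and Dkk1 (1.46, 7.55e-04). Those that fell were the FGF feedback genes Spry2 (-0.71, 8.26e-06), Dusp4 (-0.91, 1.4e-05) and Dusp6 (-0.54, 0.00149), beside Dact1 (-1.26, 5.26e-06). The FGF feedback gene Spry4 was not called (5.66 TPM in TLSMG and 5.55 in TLSMGC). Nor were Egr1 (4.55 and 3.92), Snai1 (29.7 and 29.9) and Myc (73.1 and 84.1). Axin2, Nkd1, Sp5 and Tnfrsf19 were also higher in TLSMGC than at 96h, by 0.82, 1.28, 0.86 and 0.79, whereas 8 of the 10 clock and boundary genes stayed below 96h.

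Of the other Notch ligands and receptors 5 of 6 were tested. Dll4 missed the filter of a mean of 1 TPM over the libraries and was not tested. It had 1.71, 1.83 and 1.70 TPM in TLSMG and at most 0.487 in any library of the other groups. Against 96h, 4 fell in Gastruloid, among them Notch2 (-0.94, 3.46e-04), Notch3 (-0.83, 6.37e-06) and Jag1 (-0.69, 5.39e-04), and in TLSMGC against TLSMG 0 of the 5 were called by limma, with 2 lower at an unadjusted p under 0.05. Jag1, a ligand of the formed somite and other tissues, was lower with LDN (TLSMGCL minus TLSMGC -0.66, adjusted p = 0.0206), opposite in sign to Notch1. Of 10 genes of Notch processing and modification, 3 rose and 1 fell in Gastruloid against 96h, and 0 rose (0 also unadjusted) and 4 fell in TLSMGC against TLSMG by limma, where median-of-ratios scaling gave 2 and 2. The medians were 0.18 and -0.13. Of 10 genes of the Notch transcription complex and its other targets, 3 rose and 2 fell in Gastruloid against 96h, and 1 rose and 5 fell in TLSMGC against TLSMG, or 2 and 4 after median-of-ratios scaling, with medians of -0.02 and -0.41. The shares of all genes were 20.8% and 20.5% in the first comparison and 10.4% and 30.5% in the second. There the counts of these 2 lists of 10 lay within 2 genes of what the shares give, and nothing is read from them. In TLSMGC against 96h, 2 of the 10 genes of the transcription complex list rose and 6 fell, where 20.6% and 20.1% of all genes did. In TLSMGCL against 96h 2 rose and 6 fell (17.4% and 22.1%).

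Of 11 genes of the formed somite, 4 rose and 6 fell in Gastruloid against 96h, and 2 rose and 6 fell in TLSMGC against TLSMG (medians -1.07 and -0.46). Among all genes 10.4% rose and 30.5% fell in the latter comparison, so that 2 of 11 rising is near the share of all genes. The 2 that rose with CHIR were Aldh1a2 (1.85, 1.15e-07), the enzyme of retinoic acid synthesis, and Tcf15 (1.08, 4.02e-04), a factor of somite epithelialization. The falls were led by Tbx18 (-2.59, 3.92e-07), a gene of the anterior somite compartment, and Meox2 (-2.22, 7.46e-07). With LDN, Aldh1a2 (0.82, 0.00556) and Efnb2 (0.74, 0.0345) were higher than in TLSMGC.

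The genes whose pattern over the 15 libraries was most like each clock gene were taken by Pearson's r of log2(TPM + 1) among 10900 genes with a mean of at least 5 TPM. The 10 genes themselves were left out of this ranking, so it does not say whether another of the 10 was closer. The points share the 5 groups, so that r mostly describes group means. Hes7 was most like Tbx6 (r = 0.991), Nomo1 (0.988) and Ddit4 (0.977), and Nrarp like Peli3 (0.99), Lef1 (0.99) and Spock2 (0.988). Dll1 was most like Lef1 (0.989), Mesp1 (0.989) and Peli3 (0.988), and Dll3 like Mesp1 (0.987), Aldh1a2 (0.982) and Hoxb1 (0.975). Lfng was most like Chrnb4 (0.987), Itgb5 (0.983) and Tcfl5 (0.983), Notch1 like Aldh1a2 (0.975), Capn2 (0.973) and Camk2n1 (0.972), and Hes1 like Syt7 (0.949), Nrtn (0.947) and Scx (0.946). Mesp2 and Ripply2 shared Pdhx (0.987 and 0.988) and Slit3 (0.979 and 0.987), while for Ripply1 the highest r was 0.841, with Gm27907.

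The libraries differed in depth, read from the coverage of a gene per FPKM, by at most 2.19 times, and 13688 to 14494 genes had at least 1 TPM. Endothelial markers summed to 220 to 272 TPM in TLSMG and to at most 67.4 in any other group, gut endoderm markers to 37.5 to 123 in all libraries, and pluripotency markers to 103 to 168 at 96h and at most 106 at 120 h. The part of these cells in the levels of the clock genes was not tested. The counts of reads are not given in these tables, so no counting interval was computed, and low values such as 0.617 TPM for Ripply2 have an unknown number of reads behind them.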

How the data were processed

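Bulk RNA-seq of 15 libraries was used, and the 5 single-cell samples were not analysed here. Libraries were made with a stranded kit, per the labels' protocols, and cutadapt 2.4, STAR 2.7.3a, StringTie 2.0 and the build mm10 are named in the submitters' processing notes. The deposited TPM values came from StringTie gene abundance tables, 1 per library, per the file headers. Those tables also hold the authors' FPKM values and the mean coverage of each gene, per the file headers. Each library's TPM summed to 1000000. Lines of 1 gene ID were summed.

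Groups came from the sample titles. Genes with a mean of at least 1 TPM entered the main test, limma (version 3.58.1, R 4.3.3) fitted to log2(TPM + 1), in 1 model of 5 groups with a mean trend, two-sided, Benjamini-Hochberg threshold 0.05, checked on simulated data. TPM keeps no counts, so no count test was run. Replicates are biological per the labels; nothing used here says how their cultures differed. Alternatives were a pseudocount of 0.1, no filter or a mean of 5 TPM, FPKM, median-of-ratios scaling, no trend, a robust prior, 2 groups alone, a replicate block and each library left out.

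The 10 genes and the lists were chosen with earlier results of these data known. Named genes were the 10 and up to 3 called genes of each list with the largest differences per comparison. The 3 genes most like each of the 10, taken from outside the 10, were also named. Further list genes (such as Cyp26a1, Axin2, Dkk1, Dusp4, Dusp6, Hes6 and Jag1 where outside that rule) and the ratios were named after their values were seen. Promoter windows came from RefSeq (GRCm38.p6), and Python 3.11.15 with pandas 2.3.3 and matplotlib 3.10.9 drew the figures.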

Additional observations from a re-analysis of the deposited data

How the results depend on the processing

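The calls among the 10 genes were counted for the 8 comparisons and the 2 F tests under the alternative settings. Of these counts 149 were within 1.5 times of the reported ones and 14 moved. Those that moved were all in TLSMG minus Gastruloid or TLSMGCL minus TLSMGC. In TLSMG against Gastruloid the count of 5 fell to 1 with no filter on low values, with FPKM, with median-of-ratios scaling and with only these 2 groups, and ranged from 0 to 5 with 1 library left out. Where 1 call remained it was Hes1. In TLSMGCL against TLSMGC the count of 1 fell to 0 with no filter, without the mean trend and with only these 2 groups, and ranged from 0 to 1 with 1 library left out. The cause was not tested, beyond fewer samples in the last kinds of setting.

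Signs turned for differences that had not been called. With FPKM these were Lfng in TLSMG minus Gastruloid (-0.08) and in TLSMGCL minus TLSMG (0.09), and Mesp2 in TLSMGC minus TLSMG (0.02). With median-of-ratios scaling they were Lfng (-0.07 and 0.16), Mesp2 (0.07) and Hes1 in TLSMGCL minus TLSMG (0.02). With 1 library left out, Ripply1 ranged from -0.42 to 0.22 in Gastruloid, -0.49 to 0.15 in TLSMG and -0.46 to 0.19 in TLSMGCL against 96h, and from -0.08 to 0.17 in TLSMGCL minus TLSMG. In TLSMG minus Gastruloid Notch1 ranged from -0.13 to 0.07 and Lfng from -0.02 to 0.17. Mesp2 ranged from -0.27 to 0.11 in TLSMGC minus TLSMG. In TLSMGCL minus TLSMG Ripply2 ranged from -0.21 to 0.30 and Lfng from -0.11 to 0.08, and in TLSMGCL minus TLSMGC Hes7 ranged from -0.16 to 0.07 and Dll1 from -0.02 to 0.19.

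Samples of the same number did not deviate together (correlations -0.18 to 0.1), so the numbers were not taken as pairs. With a replicate block the counts were 9, 9, 8 and 9 against 96h, 5 in TLSMG minus Gastruloid, 6 in TLSMGC minus TLSMG, 5 in TLSMGCL minus TLSMG and 1 in TLSMGCL minus TLSMGC, as without it. Over all genes, the count of 169 in TLSMGCL minus TLSMGC was 42 with only the 2 groups and 56 to 198 with 1 library left out. The depth in reads is unknown.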

Other observations

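Other HES genes followed patterns of their own. Hes3, a repressor of neural progenitors, had 27.2, 16.3 and 12.7 TPM in Gastruloid and 24.3, 27.6 and 38.6 in TLSMG, against 0.789, 0.682 and 1.66 in TLSMGC and 1.3, 0.976 and 0.822 in TLSMGCL. All libraries with CHIR were below all of the other 120 h libraries, and by limma Hes3 fell by 3.93 on the log2 scale in TLSMGC against TLSMG (adjusted p = 5.01e-07), where Hes7 rose by 1.61. Hes6 had 16.3, 15.6 and 18.2 TPM at 96h and was higher in every 120 h group, by 0.79 in Gastruloid (2.21e-06) and by 1.01 in TLSMGC (2.28e-07). Hes3 and Hes6 therefore ended above 96h in Gastruloid (1.45 and 0.79), as Hes1 did (0.80), while Hes7 ended below it. Hes5, a Notch target of neural progenitors, was not called in Gastruloid against 96h (0.13, adjusted p = 0.663) and was lower than at 96h in TLSMG (-0.64, 0.0276), TLSMGC (-0.87, 0.00561) and TLSMGCL (-0.84, 0.00713).

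Mesp1 lies beside Mesp2 at chr7:79792241-79793788 and encodes a related factor of early mesoderm. At 96h it had 61.4, 68.2 and 68 TPM, in TLSMG 1.24, 0.822 and 1.65, and in Gastruloid 0, 0.693 and 0.861. With CHIR it had 4.76, 5.43 and 5.82 TPM in TLSMGC and 7.51, 8.43 and 7.8 in TLSMGCL. Mesp1 rose by 1.52 in TLSMGC over TLSMG (adjusted p = 4.37e-05), where Mesp2 gave -0.07 (0.842). The difference between both genes' responses was not tested.

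Outside the 10 genes, the one most like Ripply1 was Gm27907. It had 207 TPM in 96h replicate 1 and at most 0.562 TPM in the other 14 libraries. That library therefore stands apart for this small gene as it does for Ripply1. The same library had the lowest summed presomitic markers at 96h (531 TPM against 736 and 808) and the highest summed somite markers (1120 against 886 and 822). The part of this in the Ripply1 value was not tested.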
